A study of Mus musculus with 2 samples.

Results

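The interferon-stimulated genes were 44 genes chosen by name, from what is known of interferon-induced genes and of the factors that switch them on. The rule used no measured value, though earlier results of these data were known when the list was drawn up. All 44 were found among the 23282 rows of gene symbols, each in 1 row. They were measured in induced Treg (iTreg) cells, which are CD4+ T cells that are turned into regulatory T cells in culture. Naïve CD4+ T cells, isolated with a magnetic selection kit from spleens of wild-type female C57BL/6 mice aged 7 to 10 weeks, were activated with antibodies to CD3ε and CD28 and kept for 1 day with IL-2, TGF-β1 and neutralizing antibodies to IFN-γ and IL-4. Both cultures had these additions, so IFN-γ made by the cells met a blocking antibody in each. The control culture had DMSO, the solvent, and the other had 10 μM Tubastatin A, called TSA in the study, an inhibitor of the cytoplasmic deacetylase HDAC6. There was 1 library of 3′-end reads for each culture, so no difference below has a replicate check, and what differs between the treatments cannot be told apart from what differs between 2 cultures or 2 library preparations. How many mice gave the cells is not given in the sources used here.

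Interferons are secreted proteins that warn cells of infection. Type I interferons bind IFNAR1 and IFNAR2, and the kinases JAK1 and TYK2 then activate STAT2, which acts with IRF9 in a complex called ISGF3. ISGF3 binds interferon-stimulated response elements in front of antiviral genes. IFN-γ binds IFNGR1 and IFNGR2 and acts through JAK1, JAK2 and gamma-activated sites in front of its target genes, and IRF1 made in response then activates further genes, among them those of the guanylate-binding proteins and the immunity-related GTPases. In T cells many of these genes are transcribed at a low level without infection, and activation through the T cell receptor induces IRF1.

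The deposited value of a gene is log2 of a normalized count plus 1, and the change is the TSA value minus the control value. Values at the low end fell on steps of 1.005 (control) and 0.995 (TSA) normalized counts, from which whole reads were recovered (99.9% and 99.8% of values of 1 to 300 reads lay within 0.1 of a whole number). The libraries held 10846023 and 10432287 reads on genes. A gene was tested when it had at least 10 reads in at least 1 library. Each fold (TSA over control) has a 95% interval from the reads by the exact Clopper-Pearson method, which compares these 2 libraries and covers counting error only. Below, a gene is called higher or lower when that interval lies wholly above or below 1, and past 2-fold from its fold alone, whatever its interval. The defining T cell genes were present, with 9461 and 10438 reads for 5 of 6 CD4 T cell markers listed, of which Cd4 itself had 2434 and 2549. The 6 markers of CD8 T or NK cells had 127 and 128 reads together, 6 B cell markers 125 and 100, and 9 myeloid markers 67 and 50.

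Of the 44 genes, 36 were tested, 33 of them with 10 or more reads in both libraries and 3 (Oas3, Ifi44 and Dhx58) in only 1. For these 3, the minimum itself favours a difference. Changes were mostly small. The median log2 fold change of the 36 was 0.10, with quartiles of -0.23 and 0.42, and 24 lay above 0. Over all 12164 genes tested the median was 0.015, the quartiles were -0.26 and 0.39, and 51.3% lay above 0. Usp18, Oas3 and Ifi44 had folds above 2, which is 8.33% of those tested against 11.5% of all genes, and of these 3 the intervals of Oas3 and Ifi44 included 1. Only Ifih1 lay past 2-fold below, 2.78% against 3.15% of all genes. The shares past 2-fold were thus no larger than the background in either direction. By the counting interval, 11 of the 36 were higher (30.6%, against 28.1% of all genes) and 5 were lower (13.9%, against 28.0%). Under scaling to total reads these counts were 13 and 3, and no share of all genes is given at that scaling.

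Well-counted genes of the list leaned toward higher values. Among the 19 whose normalized count averaged 100 or more, none passed 2-fold, 10 were higher and 4 lower, and the median log2 fold change was 0.23. Among all 8188 genes at that level, 23.4% were higher and 36.5% lower, and the median was -0.058. Reads were concentrated in few genes. Irf1, Igtp, Iigp1, Samhd1 and Gbp2 held 72% (control) and 77% (TSA) of the list's reads, and all 5 were higher with TSA. The 44 genes together had 24472 and 32434 reads, 0.226% and 0.311% of each library. On the authors' scaling, which all folds use, this was a fold of 1.31 (1.29 to 1.33), and folds relative to the library totals were higher by 0.070 on the log2 scale. Without these 5 genes, which were singled out after their values were seen, the other 39 had 6840 and 7444 reads, a fold of 1.08 (1.04 to 1.11). In such bulk RNA, fewer cells that express a gene and less RNA per cell cannot be told apart.

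**Figure D1:**
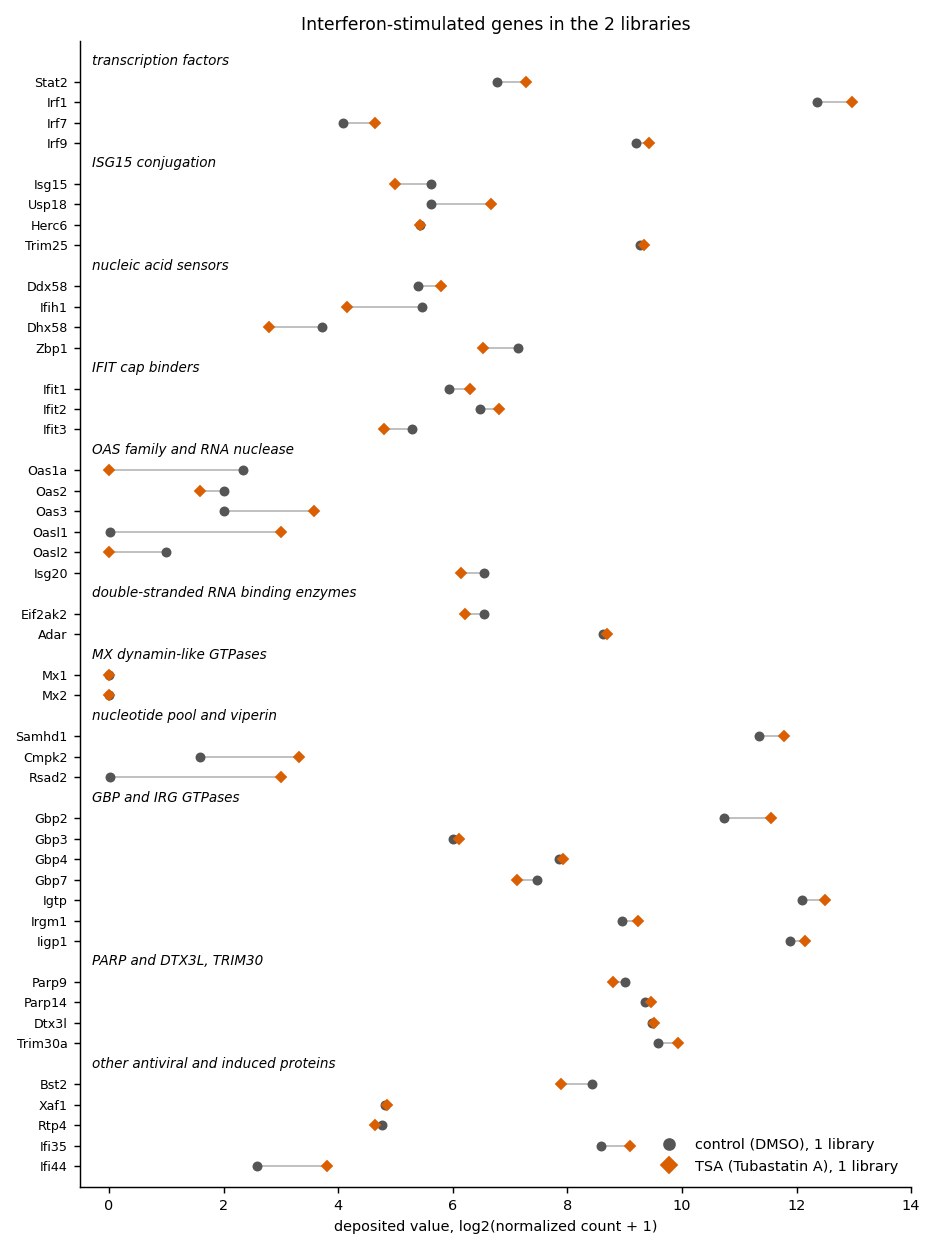
Deposited values of all 44 genes, log2(normalized count + 1) on the horizontal axis, in the control library (grey circles) and the TSA library (orange diamonds), arranged by the role of the encoded protein. The 2 marks of most genes lie close together, Irf1, Igtp, Iigp1, Samhd1 and Gbp2 sit at the right end with the TSA mark to the right of the control mark, and Mx1 and Mx2 lie at 0 in both.

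**Figure D2:**
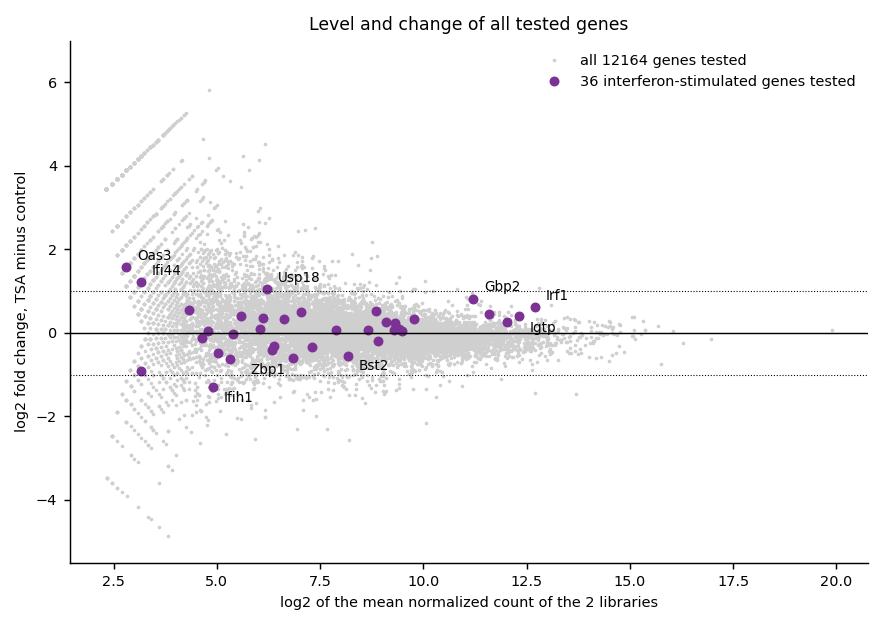
Log2 fold change (TSA minus control, vertical axis) against log2 of the mean normalized count (horizontal axis) for the 12164 genes tested (grey) and the 36 interferon-stimulated genes among them (purple), with dotted lines at 2-fold. The purple points spread with the grey ones at low counts, where Oas3, Ifi44 and Usp18 lie past 2-fold above and Ifih1 below, and at the highest counts Gbp2, Irf1 and Igtp lie above 0.

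Sequences in front of some genes toward both ends of the range are shown, because the elements that interferons act through lie in front of genes. Of the 44 genes, 33 had an entry in the RefSeq promoter table (GRCm38.p6), and the 250 bases before each transcript start were searched on both strands for the core of the response element, GAAANNGAA, and for the gamma-activated site, TTCNNNGAA. Matches to these motifs can overlap each other, and those of the response element often run into one another. The response element core was found for 17 of the 33 genes (51.5%), against 8.18% of all 27025 genes in the table, and the gamma-activated site for 9 (27.3%) against 8.13%. Both motifs were present for 4 genes and neither for 11. The genes below were tested in both libraries, had intervals that left out 1 and had an entry, and they include the 3 with the lowest and the 3 with the highest folds among such genes. No entry was found for Usp18, Dhx58, Zbp1, Oas2, Mx1, Mx2, Gbp4, Iigp1, Parp9, Parp14 and Rtp4. Usp18, with a fold of 2.06, and Zbp1, with 0.658, are therefore not shown. Matches are in capitals.
Ifih1, chr2:62646256-62646505, minus strand, 1 response element core: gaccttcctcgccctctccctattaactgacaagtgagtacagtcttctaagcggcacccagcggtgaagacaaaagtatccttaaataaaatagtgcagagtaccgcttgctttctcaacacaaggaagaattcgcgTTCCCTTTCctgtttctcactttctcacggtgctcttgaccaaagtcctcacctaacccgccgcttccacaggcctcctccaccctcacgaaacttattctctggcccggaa
Bst2, chr8:71537473-71537722, minus strand, 2 response element cores that overlap each other, the first of which also overlaps a gamma-activated site: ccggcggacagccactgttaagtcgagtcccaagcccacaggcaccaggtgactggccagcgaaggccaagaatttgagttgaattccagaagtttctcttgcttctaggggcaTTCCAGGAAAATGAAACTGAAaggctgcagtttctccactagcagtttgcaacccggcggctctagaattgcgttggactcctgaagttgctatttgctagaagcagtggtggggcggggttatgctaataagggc
Gbp7, chr3:142530086-142530335, plus strand, 2 gamma-activated sites and 1 response element core: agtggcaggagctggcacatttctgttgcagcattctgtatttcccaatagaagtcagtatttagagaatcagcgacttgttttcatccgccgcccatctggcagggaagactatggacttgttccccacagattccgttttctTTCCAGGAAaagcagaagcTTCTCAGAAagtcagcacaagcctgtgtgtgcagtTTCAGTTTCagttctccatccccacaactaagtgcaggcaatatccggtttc
Ifi35, chr11:101448162-101448411, plus strand, no match: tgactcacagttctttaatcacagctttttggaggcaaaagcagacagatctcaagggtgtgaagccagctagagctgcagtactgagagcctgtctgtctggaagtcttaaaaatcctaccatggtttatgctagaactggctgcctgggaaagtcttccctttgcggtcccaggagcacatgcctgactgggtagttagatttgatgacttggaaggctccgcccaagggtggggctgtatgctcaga
Irf1, chr11:53769764-53770013, plus strand, 1 gamma-activated site: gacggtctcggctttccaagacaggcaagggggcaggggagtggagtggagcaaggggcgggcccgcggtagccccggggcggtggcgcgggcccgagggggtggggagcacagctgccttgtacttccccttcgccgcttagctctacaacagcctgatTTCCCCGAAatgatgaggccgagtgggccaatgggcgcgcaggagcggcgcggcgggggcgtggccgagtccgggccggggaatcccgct
Gbp2, chr3:142620413-142620662, plus strand, 1 response element core: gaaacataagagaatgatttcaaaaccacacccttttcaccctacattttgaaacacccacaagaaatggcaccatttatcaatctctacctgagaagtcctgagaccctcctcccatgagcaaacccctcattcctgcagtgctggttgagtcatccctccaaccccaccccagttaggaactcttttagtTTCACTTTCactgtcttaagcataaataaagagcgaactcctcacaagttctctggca

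Genes with the same motif did not share a direction. Of the 15 tested genes with a response element core, 10 lay above 0, and the log2 fold changes had a median of 0.10 and a range from -1.30 for Ifih1 to 1.57 for Oas3, which passed the minimum of reads in the TSA library alone. The next highest was Gbp2, at 0.82. Of the 8 with a gamma-activated site, 4 lay above 0, with a median of 0.01 and a range from -0.55 for Bst2 to 0.61 for Irf1. The 8 with neither motif in these windows had a median of 0.32, and 7 of them lay above 0. Gbp7, with both motifs close to its start, was lower, and Ifi35, with neither, was higher. A second transcript start of Irf1 held no match in its window. No match says only that these letters are not in the window, and elements farther away were not searched.

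**Figure D3:**
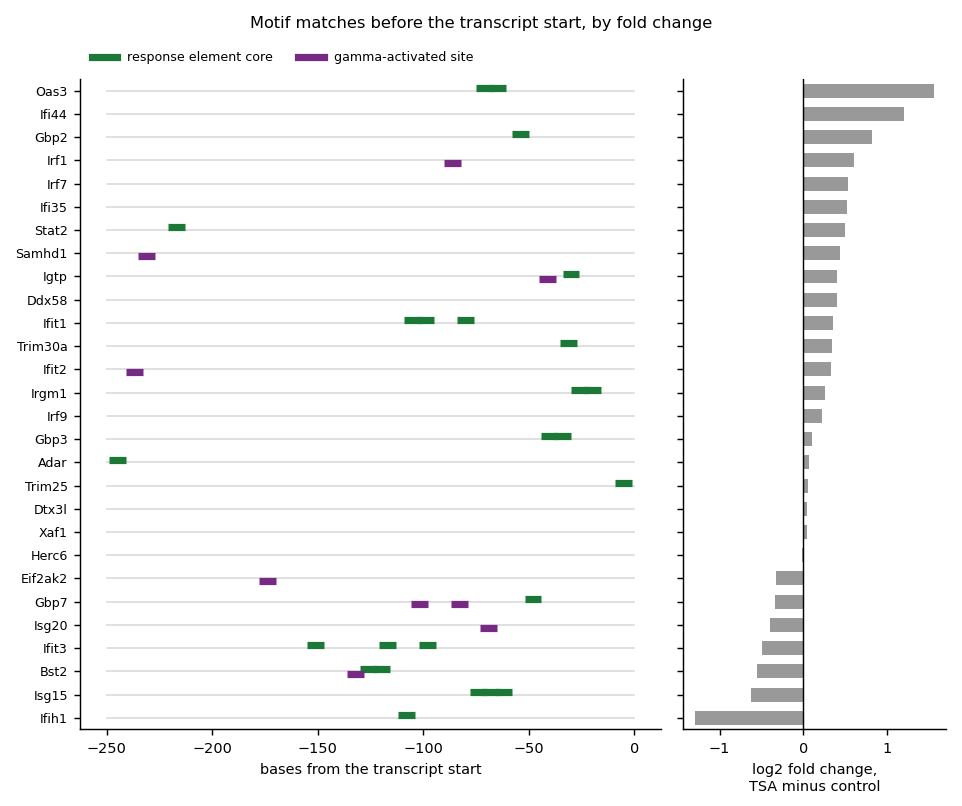
Matches to the response element core (green) and the gamma-activated site (purple) in the 250 bases before the transcript start, in bases from the start, for the 28 tested genes with an entry, ordered by log2 fold change (TSA minus control, bars at the right). Windows of genes with several starts are laid over each other. Matches are found at the top of the order (Oas3, Gbp2) and at the bottom (Isg15, Ifih1).

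The 4 transcription factors of the list all had log2 fold changes above 0, where 51.3% of all genes lay, and 3 of them were higher by the interval, against 28.1% of all genes. Irf1, which both interferon types and T cell activation induce, had the most reads on the list, 5208 in the control and 8028 with TSA, with deposited values of 12.35 and 12.96 and a fold of 1.53 (1.47 to 1.58). Stat2, which carries the type I signal in ISGF3, had 108 and 155 reads, a fold of 1.42 (1.10 to 1.83). Its partner Irf9 had 582 and 691 reads, a fold of 1.18 (1.05 to 1.32), and the folds of Stat2 and Irf9 did not differ by more than counting error (ratio 1.21, 0.916 to 1.60). Irf7, the factor that amplifies type I interferon production, had 16 and 24 reads, too few to place its fold of 1.46 (0.757 to 2.99) on either side of 1. In GENCODE M21 on GRCm38, the build that the labels call mm10, Irf1 lies on chromosome 11 from 53770014 to 53778374 on the plus strand, Stat2 on chromosome 10 from 128270559 to 128292849 and Irf9 on chromosome 14 from 55603571 to 55610030. The last overlaps Rnf31 on the same strand, so reads of the 2 genes may have been counted together.

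The GTPases known best as IFN-γ targets had the most reads of any group on the list, 10806 in the control and 14470 with TSA, a fold of the sums of 1.33 (1.29 to 1.36). The guanylate-binding proteins (GBPs) assemble on the membranes that enclose intracellular pathogens, and the immunity-related GTPases (IRGs) disrupt such membranes or guard those of the host. Gbp2 had 1703 and 3037 reads, deposited values of 10.74 and 11.56 and a fold of 1.77 (1.66 to 1.87), the largest among the 19 genes of the list whose normalized count averaged 100 or more over both libraries. Of the IRGs, Igtp (also called Irgm3) had 4358 and 5832 reads, a fold of 1.33 (1.27 to 1.38). Iigp1, an effector IRG, had 3781 and 4550 reads, a fold of 1.19 (1.14 to 1.24). Irgm1, a regulator of the effector IRGs, had 496 and 601 reads, a fold of 1.20 (1.06 to 1.35). All 3 IRG genes were therefore higher, against 28.1% of all genes. Igtp was higher by more than Iigp1 (ratio of folds 1.11, 1.05 to 1.18), a pair chosen after the values were seen. Igtp lies on chromosome 11 from 58199556 to 58207591 and overlaps Irgm2 on the same strand, so reads of the 2 genes may have been counted together.

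Genes of the GBP cluster on chromosome 3 differed in their folds. Gbp7 (142530342 to 142550149), Gbp3 (142560026 to 142573209) and Gbp2 (142620602 to 142638008) stand in a row on the plus strand. Gbp3 had 63 and 68 reads, a fold of 1.07 (0.747 to 1.53). Gbp7 had 175 and 139 reads, a fold of 0.788 (0.625 to 0.988), and was thus on the other side of 1 from Gbp2. A ratio of 2 folds does not depend on how the libraries are scaled, but the pairs compared were chosen after their values were seen. That of Gbp2 over Gbp7 was 2.24 (1.77 to 2.85) and that of Gbp2 over Gbp3 was 1.65 (1.15 to 2.38), while that of Gbp3 over Gbp7, 1.36 (0.884 to 2.09), included 1. Gbp4, on chromosome 5, had 230 and 243 reads, a fold of 1.05 (0.87 to 1.26). GBP genes are close paralogs, and Gbp4 overlaps Gbp8 and Gbp9 on its strand, so the division of reads among them is uncertain.

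The 4 sensors of foreign nucleic acid on the list were its group with the lowest fold of summed reads, 235 reads in the control and 170 with TSA, a fold of the sums of 0.716 (0.585 to 0.876), and 2 of the 4 were lower, against 28.0% of all genes. Of the sensor genes outside the list, which are given with the pathway, Mb21d1 was higher and Tlr7 lower. Ifih1 encodes MDA5, which recognises long double-stranded RNA. It had 43 and 17 reads, deposited values of 5.47 and 4.16 and a fold of 0.405 (0.209 to 0.701), the lowest fold of the 36 tested genes. Zbp1, a sensor of left-handed double-stranded nucleic acid that can start necroptosis, had 139 and 92 reads, a fold of 0.658 (0.498 to 0.859). Dhx58, encoding LGP2, had 12 and 6 reads, a fold of 0.533 (0.152 to 1.43). Ddx58 encodes RIG-I, the sensor of short 5′-triphosphate RNA and a known substrate of HDAC6 at the protein level. It had 41 and 55 reads, a fold of 1.32 (0.87 to 2.04). Ddx58 and Ifih1, paired after their values were seen, differed beyond counting error, with a ratio of folds of 3.37 (1.62 to 7.25). Ifih1 lies on chromosome 2 from 62595798 to 62646255 and Zbp1 on the same chromosome from 173206612 to 173218923, both on the minus strand.

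Of the 4 genes of the ISG15 system, which attaches the ubiquitin-like protein ISG15 to other proteins, 1 was higher (25% against 28.1% of all genes) and none was lower. Isg15 itself had 48 reads in the control and 31 with TSA, a fold of 0.647 (0.394 to 1.03). Usp18, whose product removes ISG15 and blocks signalling at the receptor chain IFNAR2, had 48 and 101 reads, deposited values of 5.62 and 6.67 and a fold of 2.06 (1.46 to 3), the gene of the list that lay past 2-fold above with the most reads. The 2 genes, paired after their values were seen, had equal reads in the control library and parted under TSA, with a ratio of folds of 3.24 (1.78 to 5.98). The ligase gene Herc6 had 42 reads in each library, and Trim25, encoding a ligase that also acts on RIG-I, had 613 and 646 reads, a fold of 1.04 (0.933 to 1.17). Usp18 lies on chromosome 6 from 121245906 to 121270917 and Isg15 on chromosome 4 from 156199424 to 156200818.

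**Figure D4:**
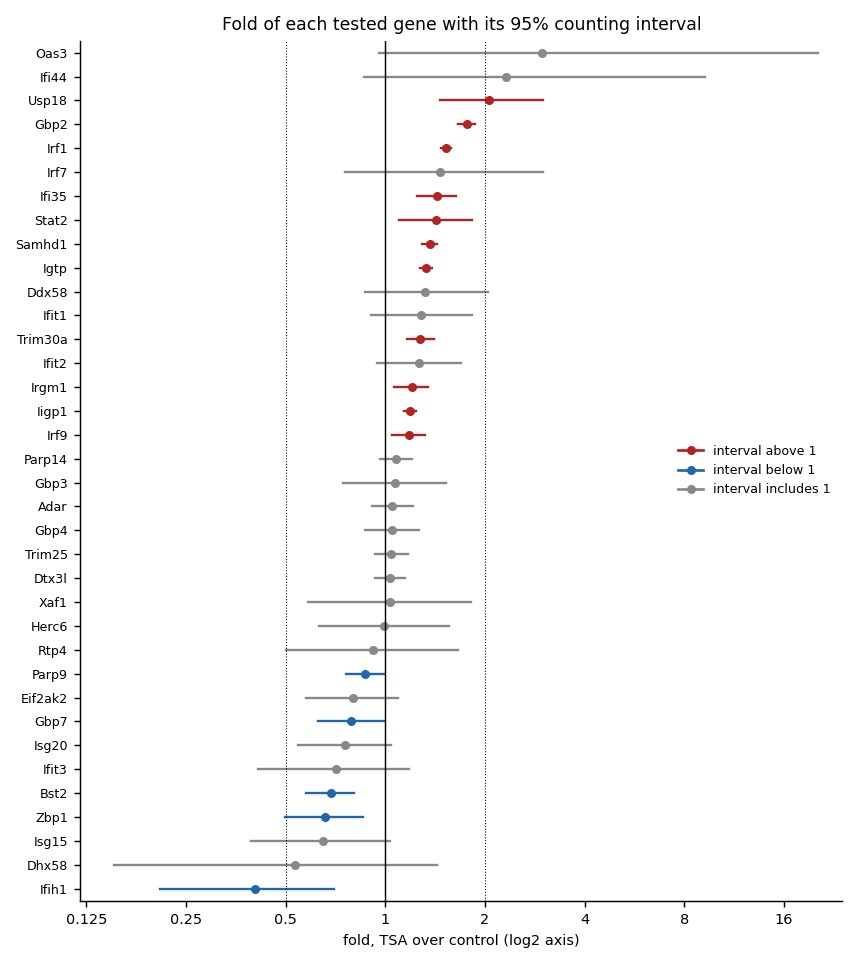
Fold (TSA over control, log2 axis) of the 36 tested genes with exact 95% counting intervals, coloured by whether the interval lies above 1, below 1 or across it, with dotted lines at 2-fold. Narrow intervals above 1 belong to Gbp2, Irf1, Samhd1, Igtp and Iigp1, while the intervals of Oas3, Ifi44 and Dhx58 are wide and cross 1.

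The IFIT, OAS, MX and viperin genes had few reads. The IFIT proteins bind foreign RNA by its 5′ end, and their genes stand together on chromosome 19, from 34550694 to 34576419 for Ifit2, from 34583531 to 34588731 for Ifit3 and from 34640871 to 34650009 for Ifit1. Ifit1 had 60 and 78 reads (fold 1.28, 0.908 to 1.83), Ifit2 had 87 and 111 (fold 1.26, 0.946 to 1.69) and Ifit3 had 38 and 27 (fold 0.711, 0.413 to 1.18). No IFIT gene was higher or lower by more than counting error, and neither did Ifit1 and Ifit3 differ from each other by more than that (ratio 1.82, 0.966 to 3.48).

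The OAS enzymes make 2′,5′-linked oligoadenylates that activate RNase L, and their genes were near the limit of detection. Oas1a had 4 and 0 reads, 1.35-fold lower with TSA if the TSA library is set at the floor of 3 reads, though the counting interval of its fold, up to 1.5, includes 1. Oas2 had 3 and 2 reads and Oasl2 had 1 and 0. Oasl1, whose product restrains translation of Irf7, had 0 and 7 reads. It was 2.31-fold higher if the control is set at the floor, but the lower counting bound was 1.43. Oas3 had 3 and 11 reads, a fold of 2.97 (0.959 to 20.3). Isg20, an RNA exonuclease gene, was better covered, with 92 and 70 reads and a fold of 0.756 (0.544 to 1.04).

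Mx1 and Mx2, dynamin-like GTPases that trap viral particles, had 0 reads in both libraries. A count of 0 allows up to 3 reads, which is 0.277 (control) and 0.288 (TSA) on the CPM scale of counts relative to the library's total. Most laboratory strains, C57BL/6 included, carry defective copies of both genes, and the annotation lists Mx2 as a polymorphic pseudogene. Rsad2, encoding viperin, which makes a chain-terminating nucleotide, had 0 and 7 reads. This was 2.31-fold higher with TSA if the control is set at the floor, but the lower counting bound was 1.43. Its neighbour Cmpk2, a mitochondrial nucleotide kinase gene that starts close to Rsad2 on the opposite strand of chromosome 12, had 2 and 9 reads, a ratio of 3.30 with an interval of 0.922 to 42.4. With Oas1a, Oas2, Oasl1 and Oasl2, these 4 were the 8 genes with fewer than 10 reads in each library, which were left out of the counts of tested genes.

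Samhd1 encodes the dNTP hydrolase that starves reverse transcription in resting cells, and it had far more reads than the IFIT and OAS genes. It had 2582 and 3543 reads, deposited values of 11.34 and 11.78 and a fold of 1.36 (1.29 to 1.43). The kinase PKR, encoded by Eif2ak2, stops translation when it binds double-stranded RNA, and ADAR1, encoded by Adar, edits such RNA so that it is not taken for foreign. Eif2ak2 had 92 and 74 reads (fold 0.799, 0.578 to 1.09) and Adar had 392 and 416 (fold 1.05, 0.913 to 1.21), so that neither differed by more than counting error.

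PARP9 and DTX3L form a complex of an ADP-ribosyltransferase and a ubiquitin ligase. Parp9 had 507 and 445 reads, a fold of 0.869 (0.763 to 0.989), and Dtx3l had 704 and 734, a fold of 1.03 (0.93 to 1.15). Their genes lie head to head on chromosome 16, Parp9 from 35938470 to 35972605 on the plus strand and Dtx3l from 35926511 to 35939151 on the minus strand, overlapping at their starts and not at the ends that the reads come from. The ratio of the folds, Dtx3l over Parp9, was 1.19 (1.005 to 1.40), for a pair chosen after the values were seen. Parp14 had 653 and 709 reads, a fold of 1.08 (0.965 to 1.20). Trim30a, a TRIM protein gene that is expressed in mouse leukocytes, had 764 and 981 reads, a fold of 1.27 (1.16 to 1.40).

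Of the remaining genes, Bst2 was lower and Ifi35 higher. Bst2 encodes tetherin, which holds budding virions at the cell surface. It had 343 and 236 reads, deposited values of 8.43 and 7.88 and a fold of 0.683 (0.575 to 0.807), and lies on chromosome 8 from 71534255 to 71537456. Bst2 is also a marker of plasmacytoid dendritic cells, for which 6 markers were listed, Bst2 included, with 640 and 770 reads together. The defining marker Siglech had 0 reads in both libraries, Ccr9 had 27 and 18, Runx2 had 39 and 31 and Ly6d had 4 and 1. Tcf4 had 227 and 484 reads, a fold of 2.11 (1.8 to 2.48). What part such cells had in the value of Bst2 was not tested. Ifi35 had 381 and 551 reads, a fold of 1.43 (1.25 to 1.64), and lies on chromosome 11 from 101448407 to 101458698. Xaf1, an antagonist of the apoptosis inhibitor XIAP, had 27 and 28 reads. Rtp4 had 26 and 24 reads. Ifi44 had 5 and 13 reads, a fold of 2.31 (0.861 to 9.22).

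The pathway around these genes was described with 40 further genes, of which 28 were tested. None passed 2-fold, against 11.5% above and 3.15% below among all genes. By the interval, 10 were higher and 8 lower (35.7% and 28.6%, against 28.1% and 28.0% of all genes). Their median log2 fold change was 0.04. The normalized count of 27 of the 28 averaged 50 or more, where 4.46% of all genes lay past 2-fold. Among all genes that averaged 100 or more, 23.4% were higher and 36.5% lower. No ligand gene other than Ifng had a read. The 7 type I and 2 type III interferon genes listed had 0 reads in both libraries, and Ifng had 139 and 163 reads, a fold of 1.16 (0.92 to 1.47). Of the receptor chains, both for IFN-γ were higher, Ifngr1 with 229 and 288 reads (fold 1.24, 1.04 to 1.49) and Ifngr2 with 92 and 144 (fold 1.54, 1.18 to 2.04). Il10rb, a chain shared by the type III interferon receptor and the IL-10 receptor, had 172 and 131 reads (fold 0.755, 0.596 to 0.952). For the type I receptor, Ifnar1 had 218 and 248 reads and Ifnar2 had 455 and 454, and both intervals included 1.

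Of the receptor kinases, Jak1 had 4616 and 5176 reads, a fold of 1.11 (1.07 to 1.16). The intervals of Jak2 and Tyk2 included 1. Among inhibitors, the feedback genes Socs1 (fold 1.13, 1.04 to 1.23) and Socs3 (fold 1.21, 1.06 to 1.37) and Pias1 (fold 1.29, 1.09 to 1.54) were higher. The phosphatase genes Ptpn2, with 853 and 648 reads, and Ptpn6, with 2833 and 2153 reads, were lower, both with a fold of 0.753.

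Upstream of interferon production, Mb21d1, encoding the DNA sensor cGAS, had 270 and 434 reads, a fold of 1.59 (1.36 to 1.86), while Tmem173, encoding its partner STING, had 1005 and 1029 (fold 1.01, 0.929 to 1.11). Tlr3, a receptor of double-stranded RNA, had 0 and 7 reads, too few to be tested. This was 2.31-fold higher with TSA if the control is set at the floor, but the lower counting bound was 1.43. Tlr9, a receptor of unmethylated DNA, had no read. Tlr7, a receptor of single-stranded RNA, was lower with 55 and 32 reads (fold 0.584, 0.361 to 0.907). Tbk1 (fold 0.751), Irf3 (fold 0.865) and Myd88 (fold 0.901) were lower too, and Ikbke (fold 1.26) and Traf3 (fold 1.15) were higher. Of the other interferon regulatory factors, Irf4, a factor induced by T cell receptor signals, had 6675 and 10749 reads, a fold of 1.59 (1.55 to 1.64). Irf8 had about 35433 and 34017 reads, a fold of 0.951 (0.937 to 0.965). The lower calls of Irf3, Irf8 and Myd88 were lost under scaling to total reads, and that of Il10rb too when the ribosomal RNA precursor Rn45s was left out of the total. On the list itself, Gbp7 and Parp9 lost the call under scaling to total reads, whereas Ifih1, Zbp1 and Bst2 stayed lower and the 11 higher genes stayed higher under each of the 5 scalings. Parp14 and Oas3 were also higher under both scalings to total reads, and Ifit2 under the one without Rn45s. Of the pathway genes, Irf2 became higher under both, so that 11 were higher and 5, or 4 without Rn45s, were lower.

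**Figure D5:**
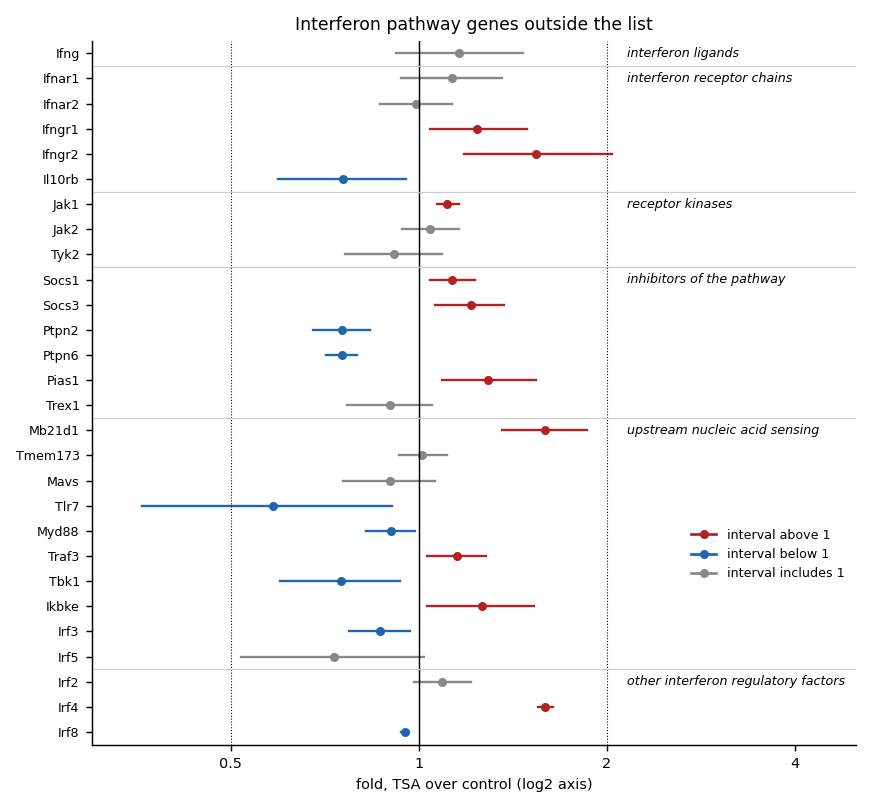
Fold (TSA over control, log2 axis) with exact 95% counting intervals of the 28 tested pathway genes outside the list, by their place in the pathway, coloured as above, below or across 1, with dotted lines at 2-fold. Ifngr1 and Ifngr2 lie above 1, Ptpn2 and Ptpn6 below, and no point lies past 2-fold.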

How the data were processed

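RNA from 1 culture per treatment was made into libraries with the QuantSeq 3′ kit and sequenced by the authors as single-end 75-nt reads. The labels' processing notes name Bowtie2, bedtools and mm10 without roles, and the study used ExDEGA. Annotation and normalization are not given in the sources used here. The authors deposited log2 values, 1 per gene and library, found from their steps to be log2(normalized count + 1). In the control library, 1940 rows without reads were listed at up to 0.016 and taken as 0 reads. The plan allowed for raw counts, but the deposited log2 values were used with the authors' scaling. For the members with the most reads, rounding leaves an error of up to 2.8 reads.

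The threshold is a change of more than 2-fold, as in the study, among genes with at least 10 reads in 1 library. No p-values were computed, as there was 1 library per treatment. Ratios of 2 folds are conditional odds ratios with exact 95% intervals, for 12 pairs chosen after their values were seen, of which 6 excluded 1. The members and gene lists were chosen with earlier results of these data known. Every member is named, and pathway genes are named mainly where the interval excludes no change. A gene of the pathway is not reported here. Groups of genes were set by the role of the protein. PCR copies were counted like other reads, so intervals and floors cover counting error only. The steps were tested on simulated data. Other scalings (total reads with and without Rn45s, trimmed mean of M-values, median of ratios), pseudocounts, filters and thresholds were tried. Gene positions came from GENCODE M21, with 43 members matched and 1 not reported, and promoter sequences from RefSeq. Strand use in counting is not stated, and 15 members overlap a gene on the other strand. Tools were matplotlib 3.10.9, scipy 1.17.1, numpy 2.4.6 and pandas 2.3.3 under Python 3.11.15.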

Additional observations from a re-analysis of the deposited data

How the results depend on the processing

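No paired analysis was possible because each treatment had 1 library, and none could be left out. The median log2 fold change of the interferon-stimulated genes stayed above 0 under each alternative tried, from 0.095 to 0.234. The 4 genes past 2-fold (3 above and 1 below) became 5 with a pseudocount of 0.1 (13.9%) and 1 (Ifih1, below) with a pseudocount of 5 (2.78%). They became 9 with no filter (21.4%), 2 with at least 10 reads in both libraries (6.06%) and 1 where the normalized count averaged 50 or more (4%). There were 9 with a 1.5-fold threshold (25%), 0 when the whole interval had to lie beyond 2-fold and 16 when it had to exclude no change (44.4%). Over all genes, 1783 became 1850 (15.2%) and 1485 (12.2%) with these pseudocounts (1182 above with the latter, where no member lay). They became 4017 with no filter (25.7%), 747 with at least 10 reads in both (6.85%) and 419 with a mean of at least 50 (4.46%). There were 3293 with 1.5-fold (27.1%), 703 with the whole interval beyond 2-fold (5.78%) and 6821 with an interval that excludes no change (56.1%). The pathway genes went from 0 to 2 with no filter (6.67%), 4 with 1.5-fold (14.3%) and 18 with an interval that excludes no change (64.3%). Scaling by total reads, with or without Rn45s, moved log2 fold changes by 0.070 and 0.085. Of 216 alternative folds of tested members, 209 stayed within the counting interval and 7 lay above it (Irf1, Igtp, Iigp1 and Samhd1, scaled to total reads), and Herc6 alone changed direction. Genes with under 10 reads are limited by depth.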
